A study of Mus musculus with 16 samples.

Results

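The genes described here encode angiopoietin-like proteins and the lipases and lipid transfer proteins that act on lipoproteins in blood: Angptl4, Angptl6, Angptl8, Lpl, Lipc, Lcat and Pltp. They were chosen by name from what the proteins do, with earlier results of these data known. All 7 have a row among the 15544 genes measured in liver. Liver RNA was sequenced in bulk from 16 female mice aged 27 weeks, in 4 groups of 4. Every mouse was homozygous for floxed Esr1, the gene of oestrogen receptor alpha, on a CD-1;129P2 mixed background. Controls (Esr1 fl/fl) carried no further allele, and mutants also carried Nkx2.1-cre, which deletes the receptor where the Nkx2-1 promoter drives Cre, including the hypothalamus. Both genotypes were studied on chow and after 17 weeks of a high-fat diet (HFD). The study set mutants with high bone mass on chow beside mutants challenged with HFD. The labels do not say that the 4 libraries of a group came from separate animals. They are read here as 4 mice, and otherwise the p-values measure only the spread between libraries.

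Triglyceride circulates in chylomicrons and very low density lipoproteins, and lipoprotein lipase, bound to the capillary wall, releases fatty acids from it. Angptl4 and Angptl8 are secreted proteins that restrain that enzyme, the former in adipose tissue during fasting and the latter in the fed state, when triglyceride is spared from muscle and heart. Hepatic lipase, lecithin-cholesterol acyltransferase and phospholipid transfer protein then remodel remnants and high density lipoprotein (HDL), and liver is a main source of the first and second of these. In adult liver, lipoprotein lipase is low, since adipose tissue, muscle and heart make most of it.

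The values are TPM (the length-adjusted share of a library that a gene takes), adjusted between libraries by size factors, and they take account of gene length, so levels of different genes can be set side by side. Column totals ranged from 905897 to 1119703, and the number of genes at 1 or more per library from 11834 to 12443. The depth behind the values is unknown. All 6 hepatocyte markers had values, with summed levels from 48020 to 89910 over the groups, while the 2 of 7 adipocyte markers with values summed to at most 7.55. Liver Esr1 was 7.59 to 15.95 in chow controls and 8.02 to 19.7 in chow mutants. It was 6.14 to 8.09 in HFD controls and 6.42 to 22.9 in HFD mutants. Mutant_HFD replicate 1, at 6.42, stood apart within the range of HFD controls, and Mutant_HFD replicates 2 to 4 were at 20.5 to 22.9. Liver Esr1 does not check the labels, because the deletion is not in liver. The numbers in the library titles form 4 series, each within 1 diet, and the labels do not say what they mean. In the lower HFD series 1 mutant (Mutant_HFD replicate 1) stands with Control_HFD replicates 1 to 3, and in the higher HFD series 1 control (Control_HFD replicate 4) stands with Mutant_HFD replicates 2 to 4. Mutant_Chow replicates 1 and 2 stood apart by their acute-phase genes, whose summed level over 10 genes was 13990 and 100100, against 5576 and 6171 in replicates 3 and 4 and 5082 to 6582 in controls on chow. Their summed levels of 8 Kupffer cell and macrophage markers were 541 and 657, against 224 and 319 in replicates 3 and 4 and 127 to 446 in controls on chow. On HFD, Control_HFD replicate 1 had an acute-phase sum of 21130, against 5430 to 10950 in the other 3 controls and 5421 to 10320 in mutants.

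On GRCm38, the assembly also called mm10, the members lie on 4 autosomes and are all protein-coding. Angptl4 (ENSMUSG00000002289) is at chr17:33773750-33781830 on the minus strand, Angptl6 (ENSMUSG00000038742) at chr9:20873808-20879727 on the minus strand and Angptl8 (ENSMUSG00000047822) at chr9:21835510-21837347 on the plus strand. Lpl (ENSMUSG00000015568) is at chr8:68880491-68907448 on the plus strand, Lipc (ENSMUSG00000032207) at chr9:70798128-70952226 on the minus strand, Lcat (ENSMUSG00000035237) at chr8:105939551-105943382 on the minus strand and Pltp (ENSMUSG00000017754) at chr2:164839518-164857711 on the minus strand. Exons of Pltp share 495 bases, 19.3% of its exon length, with Ctsa on the opposite strand, and exons of Angptl6 share 265 bases (16.8%) with A230050P20Rik on the opposite strand. Angptl8 lies inside Dock6 and Lcat inside the antisense gene Gm16156, with 0 exon bases shared in both cases. The kit was not stated to mark strand, so reads of overlapping exons cannot be told apart.

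The upstream sequences of Angptl8 and Pltp are shown because these members had the largest estimated differences by diet and, on chow, by genotype. RefSeq promoters (GRCm38.p6) matched 5 of the 7 members with 6 start sites, and each sequence below is the 250 bases before a start site, read 5′ to 3′ along the gene. Capitals mark the letters found when both strands were searched for GGGTCA and AGGTCA (forms of the hexamer that nuclear receptors bind), CACGTG (an E-box), CCAAT and GGGCGG (a GC box).
Angptl8, chr9:21835260-21835509, plus strand: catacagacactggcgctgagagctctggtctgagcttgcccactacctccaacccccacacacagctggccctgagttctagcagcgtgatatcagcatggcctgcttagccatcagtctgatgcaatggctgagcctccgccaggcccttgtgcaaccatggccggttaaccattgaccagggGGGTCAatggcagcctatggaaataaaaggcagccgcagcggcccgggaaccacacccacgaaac
Pltp, chr2:164857709-164857958, minus strand: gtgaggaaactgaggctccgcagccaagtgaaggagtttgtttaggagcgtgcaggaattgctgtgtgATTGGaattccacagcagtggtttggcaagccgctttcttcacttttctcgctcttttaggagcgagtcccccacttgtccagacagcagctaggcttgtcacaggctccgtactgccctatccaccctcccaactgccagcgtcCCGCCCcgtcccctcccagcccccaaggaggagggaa
The capitals in Angptl8 are GGGTCA, whose first letter lies 65 bases before the start, and 11.6% of 32851 promoters of this length hold it. In Pltp they are CCAAT and GGGCGG, both as reverse complements, which 33.8% and 32.7% of promoters hold. AGGTCA stood in 1 of the 6 member promoters (Lipc, 14.0% of all promoters) and CACGTG in 0 of 6 (6.02% of all). Such matches describe these letters in this window and are not binding sites.

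Lcat was the most abundant member, with a median of 618 adjusted TPM over the 16 libraries, followed by Lipc (245), Angptl8 (92.9), Angptl4 (64.3), Pltp (27.7), Angptl6 (24.7) and Lpl (4.48). Lcat was above Lipc in 16 of 16 libraries and Lipc above Angptl8 in 15 of 16. Angptl8 was above Angptl4 in 11 of 16 libraries, and their ranges overlapped in all 4 groups, so this pair of neighbours was not separated beyond its spread. Angptl4 was above Pltp in 14 of 16 libraries, Pltp above Angptl6 in 12 of 16, with ranges overlapping in 2 and 3 of the groups, and Angptl6 above Lpl in 16 of 16. Lcat stood at percentile 98.6 of level among the 12704 tested genes and Lpl at percentile 32. In whole liver, fewer cells of a type and less RNA per cell cannot be told apart.

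The members also differed in how much mice of a group varied. The pooled SD within groups, on the log2 scale, was 0.12 for Lcat and 0.18 for Lipc, below the median of 0.26 over all tested genes. It was 0.24 for Angptl6, 0.38 for Lpl, 0.42 for Pltp, 0.59 for Angptl4 and 0.62 for Angptl8, and the last 2 lay at percentiles 93.5 and 94.3 of all tested genes. From the lowest to the highest library Lcat spanned 1.35-fold, Lipc 1.45-fold, Angptl6 2.13-fold, Pltp 2.80-fold, Lpl 3.31-fold, Angptl4 3.47-fold and Angptl8 5.87-fold.

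**Figure D1:**
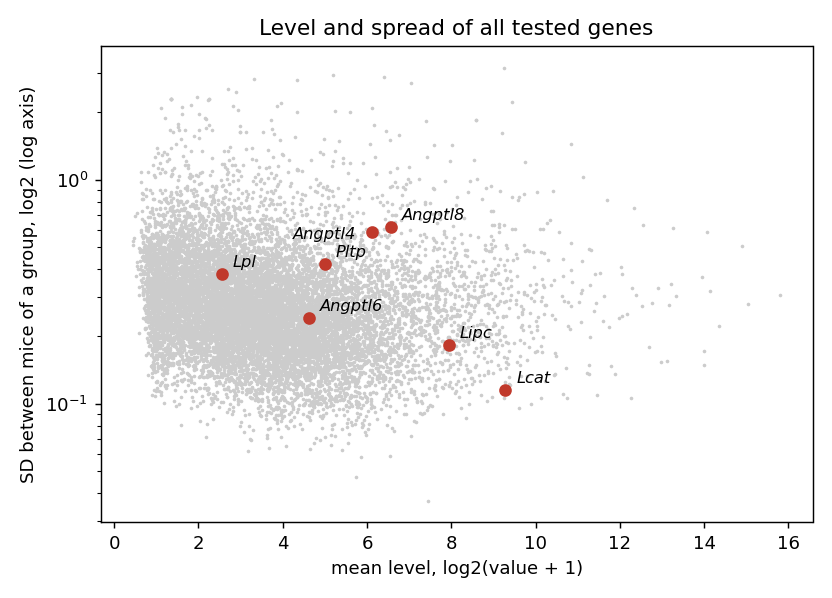
Mean level of each of the 12704 tested genes, as log2(value + 1), against the pooled SD between mice of a group on the log2 scale, drawn on a log axis. Grey points are genes and red points are the 7 members: Angptl4 and Angptl8 sit high at SDs of 0.59 and 0.62, and Lcat sits low at 0.12.

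Angptl8, a secreted protein that insulin and feeding raise in liver, had the largest estimated diet difference of the 7. In controls on chow it was 86.9, 81.9, 46.8 and 126 adjusted TPM in replicates 1 to 4, and in controls on HFD it was 249, 215, 110.0 and 89.8. Control_HFD replicates 1 and 2 exceeded every chow control, and replicates 3 and 4 lay within the range of chow controls. In mutants on chow it was 104, 47.5, 83.3 and 42.5, and in mutants on HFD it was 96.0, 109, 60.9 and 154, where 2 HFD mutants exceeded every chow mutant. The HFD to chow ratio, on the log2(value + 1) scale, was 1.87-fold in controls (95% interval 1.05 to 3.34, limma adjusted p = 0.345) and 1.53-fold in mutants (0.859 to 2.73, limma adjusted p = 0.818). The exact permutation test of 4 against 4 libraries, two-sided, gave p = 0.143 in controls, where the smallest possible p is 0.0286. The mutant to control ratio was 0.806-fold on chow (0.452 to 1.44) and 0.659-fold on HFD (0.370 to 1.17), with limma adjusted p-values of 0.995 and 0.635. Within the lower HFD series the mutant, at 96.0, was below its 3 controls, and within the higher HFD series the 3 mutants lay on both sides of the control at 89.8. The interaction was -0.29 on the log2 scale with a standard error of 0.55. The diet estimate in controls was 1.16 on the log2 scale without Control_HFD replicate 4 (limma adjusted p = 0.0873), 0.65 without Control_Chow replicate 3 and 0.67 without Control_HFD replicate 1. That last library, with the highest Angptl8 of the 16, also held the highest acute-phase sum on HFD. By diet in controls 9 of 10 acute-phase genes had estimates above 0, with a median of 1.18, against 48.6% of all tested genes above 0. By diet in mutants 10 of 10 were below 0, with a median of -1.74, against 47.7% of all tested genes above 0. There Mutant_Chow replicates 1 and 2 held acute-phase sums of 13990 and 100100. Mutant_Chow replicates 3 and 4, at 5576 and 6171, lay within the range of mutants on HFD, 5421 to 10320. The Angptl8 estimate by diet in mutants was 0.61. Mutant_Chow replicate 2, with the highest acute-phase sum of the 16, held Angptl8 at 47.5. The part of acute-phase genes in the Angptl8 values was not tested. Leaving out 1 library moved the genotype estimate on chow from -0.31 to between -0.57 (without Control_Chow replicate 3) and -0.10 (without Control_Chow replicate 4). On HFD it moved from -0.60 to between -0.85 (without Control_HFD replicate 4) and -0.365 (without Control_HFD replicate 1), and the interaction reached -0.03 without Control_Chow replicate 3. In mutants the diet estimate was 0.41 without Mutant_HFD replicate 4, against 0.61 with it.

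Angptl4, an inhibitor of lipoprotein lipase and a target of the fatty acid receptors PPAR alpha and gamma, reached its highest values in chow libraries. In controls on chow it was 97.9, 55.7, 134 and 61.9 adjusted TPM, and in their mutant counterparts it was 47.4, 41.0, 101 and 127. Mutant_Chow replicates 1 and 2 were below every control on chow, and replicates 3 and 4 were each above 3 of the 4 controls. In controls on HFD it was 66.8, 87.6, 98.6 and 38.8, and in mutants on HFD it was 50.9, 46.5, 71.2 and 52.1, so all groups overlapped. The mutant to control ratio was 0.862-fold on chow (95% interval 0.497 to 1.5) and 0.794-fold on HFD (0.458 to 1.38), and the HFD to chow ratio was 0.840-fold in controls (0.484 to 1.46) and 0.774-fold in mutants (0.446 to 1.34). The limma adjusted p-values were 0.767 or more in these 4 comparisons. The same Mutant_Chow replicates 1 and 2 held Cyp4a14, a fatty acid hydroxylase and PPAR alpha target, at 5.98 and 1.61, against 300 and 280 in replicates 3 and 4 and 208 to 608 in controls on chow. Those 2 libraries also carried the high acute-phase and macrophage sums given above, and the part of these in the Angptl4 values was not tested. Without Mutant_Chow replicate 2 the chow estimate was 0.04 in place of -0.21 on the log2 scale. The diet estimate in mutants, -0.37, was -0.63 without that library and -0.09 without Mutant_Chow replicate 4, and the genotype estimate on HFD, -0.33, was -0.60 without Control_HFD replicate 4 and -0.16 without Control_HFD replicate 3.

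Angptl6, also called angiopoietin-related growth factor, is a secreted protein linked to energy expenditure. It was 20.2, 23.1, 26.5 and 21.1 adjusted TPM in chow controls, 24.3, 13.9, 25.1 and 21.8 in chow mutants, 25.4, 29.6, 29.3 and 20.5 in controls on HFD and 27.0, 24.0, 26.7 and 27.9 in mutants on HFD. The lowest of the 16 values was that of Mutant_Chow replicate 2, the library with the highest acute-phase sum, and 3 of 4 HFD mutants exceeded every chow mutant. The HFD to chow ratio was 1.26-fold in mutants (95% interval 0.983 to 1.61, limma adjusted p = 0.747) and 1.14-fold in controls (0.894 to 1.46, limma adjusted p = 0.640). In mutants the estimate was 0.15 on the log2 scale without Mutant_Chow replicate 2, against 0.33 with it. The mutant to control ratio was 0.923-fold on chow (0.723 to 1.18) and 1.02-fold on HFD (0.795 to 1.30), with limma adjusted p-values of 0.996 and 0.977.

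Lpl, the lipase of capillary walls, was low but above 1 in every library. It was 2.71, 4.40, 4.57 and 5.37 adjusted TPM in chow controls, 5.03, 3.98, 3.74 and 3.88 in chow mutants, 6.36, 8.99, 3.57 and 6.29 in controls on HFD and 6.97, 3.93, 3.83 and 8.06 in mutants on HFD. On HFD 3 of 4 controls and 2 of 4 mutants exceeded every chow library of their genotype, and the remainder lay within the chow range. The HFD to chow ratio was 1.36-fold in controls (95% interval 0.942 to 1.97, limma adjusted p = 0.465) and 1.26-fold in mutants (0.868 to 1.82, limma adjusted p = 0.861). On this scale the ratio understates the change of a gene at so low a level. The mutant to control ratio was 0.994-fold on chow (0.687 to 1.44) and 0.916-fold on HFD (0.633 to 1.32), with limma adjusted p-values of 1 and 0.880. On the log2 scale the diet estimate in controls, 0.45, was 0.28 without Control_HFD replicate 2, and that in mutants, 0.33, was 0.16 without Mutant_HFD replicate 4. Of the 7 adipocyte markers 2 had values. Plin1, which coats fat droplets in adipocytes, was at most 0.149 in any library. Adrb3, a beta-adrenergic receptor, was 5.49, 3.62, 3.67 and 1.53 in controls on HFD and 7.55, 0.389, 1.76 and 1.36 in mutants on HFD, against 0.580 to 2.65 in chow libraries. The 4 libraries of the lower HFD series thus held the highest Adrb3, with diet estimates of 0.75 in controls and 0.51 in mutants (limma adjusted p = 0.489 and 0.885). Control_HFD replicate 3, with Adrb3 at 3.67, held the lowest Lpl on HFD (3.57), and Mutant_HFD replicate 4, with Adrb3 at 1.36, held Lpl at 8.06. The part of Adrb3 in the Lpl values was not tested.

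Lipc, hepatic lipase, had estimates close to equality in all 4 comparisons. It was 247, 220, 284 and 237 adjusted TPM in chow controls, 260, 207, 263 and 243 in chow mutants, 224, 294, 266 and 203 in controls on HFD and 265, 226, 276 and 222 in mutants on HFD. The 4 groups covered nearly the same range. For genotype the ratio of mutant to control was 0.985-fold on chow (95% interval 0.807 to 1.20) and 1.01-fold on HFD (0.827 to 1.23), and the HFD to chow ratio was 0.992-fold in controls (0.813 to 1.21) and 1.02-fold in mutants (0.833 to 1.24). The limma adjusted p-values were 0.983 or more, and the intervals together reached from 0.807-fold to 1.24-fold.

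Lcat, which esterifies cholesterol on HDL, had the lowest spread of the 7. It was 603, 549, 647 and 572 adjusted TPM in chow controls, 595, 735, 618 and 650.0 in chow mutants, 617, 675, 683 and 615 in controls on HFD and 544, 591, 681 and 622 in mutants on HFD. The highest library was Mutant_Chow replicate 2 and all groups overlapped. For genotype the ratio of mutant to control was 1.09-fold on chow (95% interval 0.935 to 1.28) and 0.940-fold on HFD (0.803 to 1.10), and the HFD to chow ratio was 1.09-fold in controls (0.934 to 1.28) and 0.939-fold in mutants (0.802 to 1.10). The limma adjusted p-values were 0.624 or more. The interaction was -0.22 on the log2 scale (standard error 0.15, limma adjusted p = 0.895).

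Pltp, which moves phospholipid from triglyceride-rich particles to HDL, had the largest estimated difference by genotype on chow. Controls on chow held 24.1, 30.2, 20.7 and 28.5 adjusted TPM and mutants on chow held 40.9, 51.9, 26.4 and 33.3, so that 3 of 4 mutants exceeded every control. In controls on HFD it was 25.7, 29.7, 24.1 and 24.6 and in mutants on HFD 21.9, 58.0, 53.3 and 26.8, so that 2 mutants exceeded every control and 1 was below every control. The mutant to control ratio was 1.43-fold on chow (95% interval 0.957 to 2.13, limma adjusted p = 0.842) and 1.40-fold on HFD (0.940 to 2.09, limma adjusted p = 0.595). The exact permutation test, two-sided, gave p = 0.0857 on chow and p = 0.343 on HFD. Among the lower HFD series the single mutant, at 21.9, was below its 3 controls, and among the higher HFD series the 3 mutants were above the single control at 24.6. On chow the mutant of the lower series, at 40.9, was above its controls at 24.1 and 30.2, and the mutants of the higher series, at 51.9, 26.4 and 33.3, lay between or above its controls at 20.7 and 28.5. With the series as a term the genotype estimate was 0.56 on chow and 0.27 on HFD on the log2 scale, against 0.51 and 0.49 without it. The estimate was 0.36 on chow without Mutant_Chow replicate 2, and on HFD it was 0.73 without Mutant_HFD replicate 1 and 0.27 without Mutant_HFD replicate 2. The highest chow values, 40.9 and 51.9, were those of Mutant_Chow replicates 1 and 2, which held the macrophage marker sums of 541 and 657 and the acute-phase sums of 13990 and 100100. For genotype on chow 8 of 8 Kupffer cell and macrophage markers had estimates above 0, with a median of 0.65, against 54.6% of all tested genes above 0. For genotype on HFD 4 were above 0 and 4 below, with a median of -0.03, against 52.9% of all tested genes above 0. Mutant_HFD replicates 2 and 3, with the highest Pltp of the 16 libraries, had macrophage sums of 245 and 243 and acute-phase sums of 5421 and 5652. The part of macrophage and acute-phase genes in the Pltp values was not tested. The HFD to chow ratio was 1.01-fold in controls (0.679 to 1.51) and 0.995-fold in mutants (0.666 to 1.48). Ctsa, the protective protein of lysosomes whose exons overlap Pltp, ranged from 91.8 to 182 over the 16 libraries, with genotype estimates of 0.20 on chow and 0.12 on HFD on the log2 scale (limma adjusted p = 0.949 and 0.813), and how reads were divided between the pair was not tested.

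**Figure D2:**
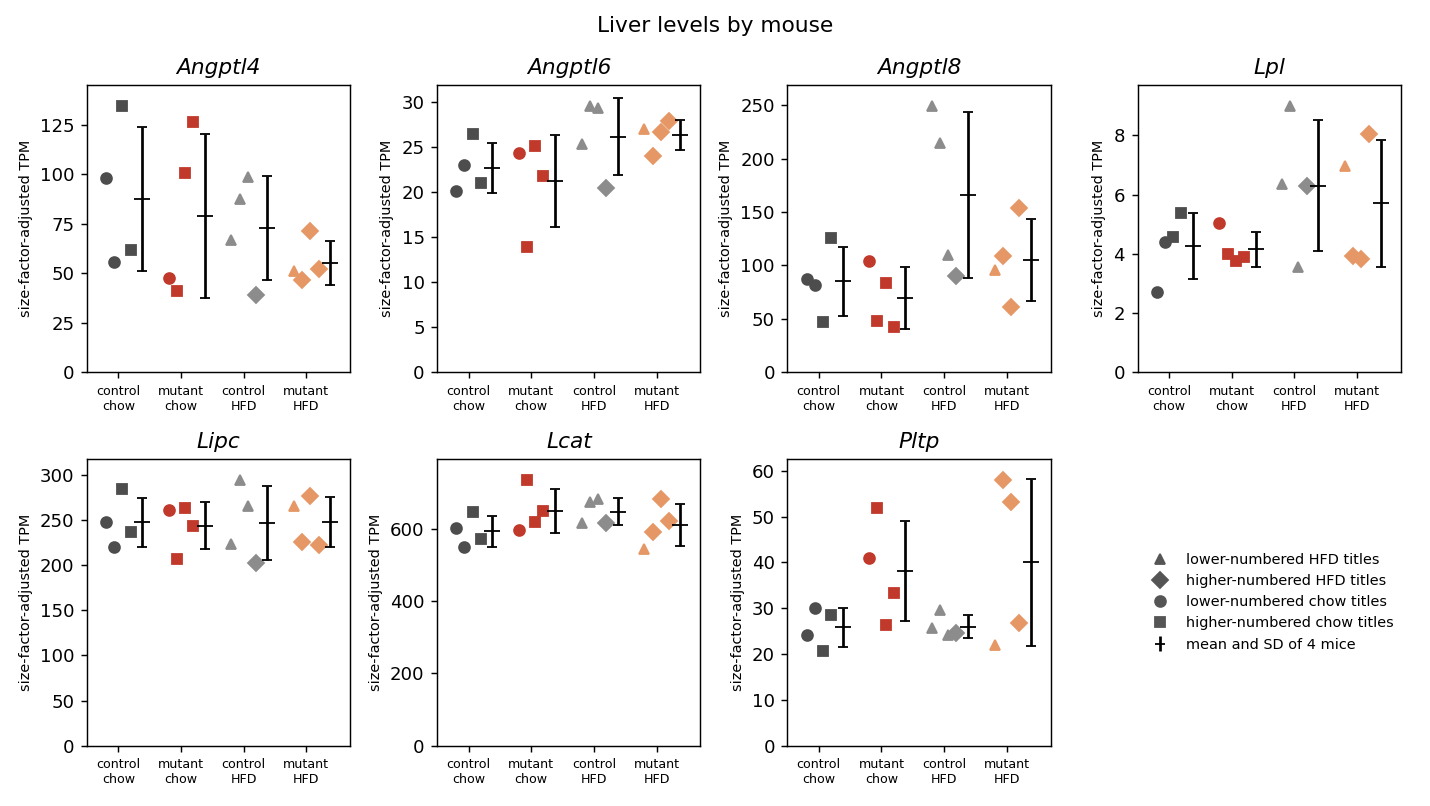
Level of each member in each library, in size-factor-adjusted TPM, by group (n = 4), with the mean and SD of the group in black and marker shape giving the number series of the title. Groups overlap in every panel, Angptl8 reaches 249 in 1 control on HFD, and Pltp reaches 51.9 in a mutant on chow and 53.3 and 58.0 in 2 mutants on HFD.

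Across the comparisons, 0 of the 7 members passed the adjusted threshold of 0.05 in limma in any of the 5 contrasts. For genotype on chow 0.0236% of all tested genes passed it, for genotype on HFD 0.0157%, and for each diet contrast and the interaction 0%. At an unadjusted p under 0.05 the members numbered 0 for genotype on chow (6.08% of all tested genes), 0 for genotype on HFD (8.6%), 1, Angptl8, by diet in controls (12.9%), 0 by diet in mutants (6.86%) and 0 in the interaction (4.21%). All 28 comparisons of 2 groups overlapped, the smallest exact permutation p was 0.0857, and the smallest after Benjamini-Hochberg adjustment was 0.739. The share of all tested genes whose groups overlap was not counted, so the overlap says nothing particular to the members. The median member estimate on the log2 scale was -0.02 for genotype on chow and -0.09 for genotype on HFD, against 0.02 and 0.02 over all tested genes. It was 0.13 for diet in controls and 0.02 for diet in mutants, against -0.01 and -0.01. The interaction estimates of Angptl4, Angptl6, Lpl, Lipc and Pltp were -0.12, 0.14, -0.12, 0.04 and -0.03 on the log2 scale. Rescaling every library to an equal total moved the median of all genes by diet in controls to -0.16 and the interaction to 0.13. The estimates for Lcat and Pltp by diet in controls changed sign under that rescaling, to -0.05 and -0.15. The intervals left room for differences of size, up to 3.34-fold for Angptl8 by diet in controls, and a p that missed the threshold does not show that a member was equal between groups.

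**Figure D3:**
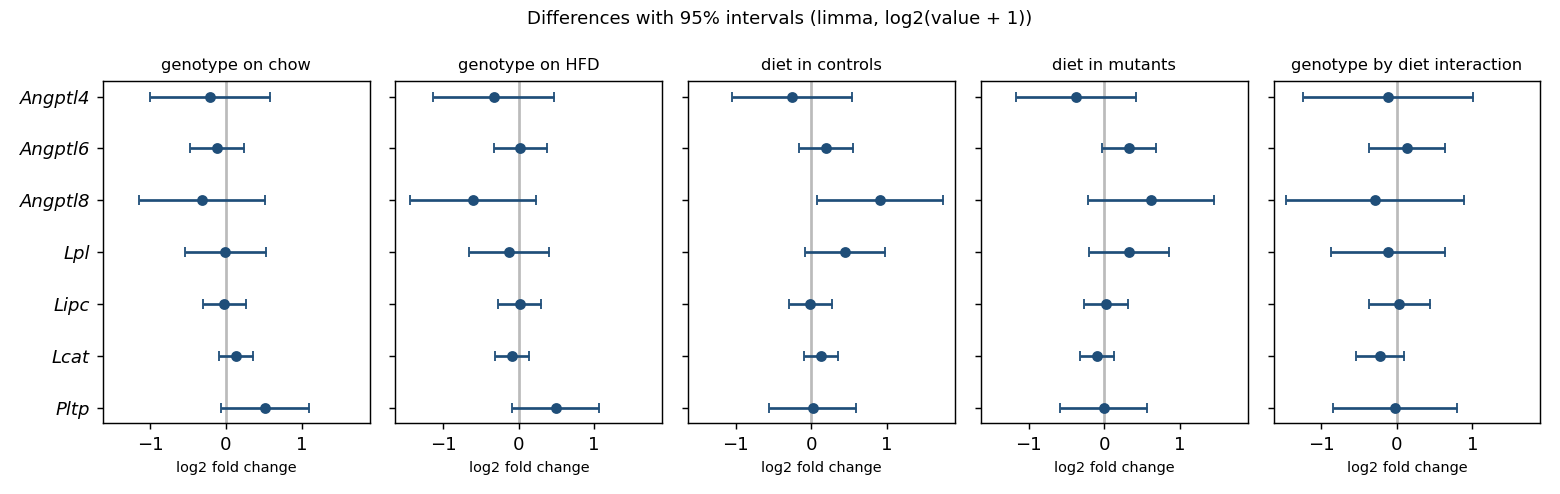
Estimated log2 fold change of each member (limma on log2(value + 1), points) with its 95% interval (bars) in the 5 contrasts, mutant minus control or HFD minus chow. The intervals of the 7 members include 0 in every panel except that of Angptl8 by diet in controls, from 0.07 to 1.74.

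Among genes that act directly on the lipases, Apoc2 and Lmf1 had an unadjusted limma p under 0.05 by diet in controls. Apoc2, the activator that lipoprotein lipase needs, was 511, 319, 347 and 304 adjusted TPM in controls on chow and 900, 860, 781 and 380 in controls on HFD. Control_HFD replicates 1 to 3 exceeded every chow control and replicate 4 did not. The estimate was 0.93 on the log2 scale in controls (standard error 0.25, limma adjusted p = 0.202) and 0.54 in mutants (limma adjusted p = 0.723). It passed the threshold in 2 of 23 alternatives, with library weights and without Control_HFD replicate 4, and limma's adjusted p lay between 0.00457 and 0.487 over them. Under those 2 alternatives 17.8% and 7.33% of all tested genes passed by diet in controls. The weights were lowest for Control_HFD replicate 4 (0.228) and Mutant_HFD replicate 1 (0.329). Each is the only library of its genotype in its HFD series, so weighting makes genotype and series on HFD harder to tell apart. Lmf1, which folds the lipases in the endoplasmic reticulum, was 27.9, 27.0, 28.2 and 29.9 in controls on chow and 36.1, 38.5, 33.0 and 29.4 in controls on HFD. Again replicates 1 to 3 on HFD exceeded every chow control, with an estimate of 0.26 (limma adjusted p = 0.272, and 0.00968 to 0.619 over 23 alternatives), which passed under the same 2 alternatives. In mutants on HFD Lmf1 was 28.6 to 31.7, and the genotype estimate on HFD was -0.20 (limma adjusted p = 0.573). That estimate passed with library weights, as did 30.9% of all tested genes. Control_HFD replicates 1 to 3 are of the lower HFD series and replicate 4 of the higher. In mutants on HFD, too, replicate 1, of the lower series, was above replicates 2 to 4, at 793 against 509 to 744 for Apoc2 and 31.7 against 28.6 to 28.9 for Lmf1. The summed level of the 16 listed partners of lipoprotein lipase was 97110 to 111900 in the lower HFD series and 42520 to 59280 in the higher. On chow it was 34100 to 66660. Such a sum follows its most abundant genes: mean log2(value + 1) was 14.9 for Apoe, 9.04 for Apoc2 and 4.96 for Lmf1. It does not show a shift of all 16 partners. In this sum the lower and higher HFD series, on the same diet, did not overlap, and the higher lay within the range on chow. Each series lies within 1 diet, so a diet contrast cannot be told apart from the series in it. What set the HFD series apart was not tested.

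Gpihbp1, the capillary anchor of lipoprotein lipase, Apoc3 and Apoa5, apolipoproteins that hold back and help its action, and Lipg, the endothelial lipase that acts on HDL, had no unadjusted limma p under 0.05 in any contrast. Of the 16 genes listed as partners of lipoprotein lipase, 0 passed the adjusted threshold in limma in any contrast. At an unadjusted p under 0.05, 2 were higher and 1 lower on HFD in controls (12.9% of all tested genes reached it) and 1 and 1 in mutants (6.86%). For genotype 0 reached it on chow (6.08%) and 1 was lower on HFD (8.6%). Their median estimate was 0.19 by diet in controls and 0.16 by diet in mutants, against -0.01 over all tested genes.

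**Figure D4:**
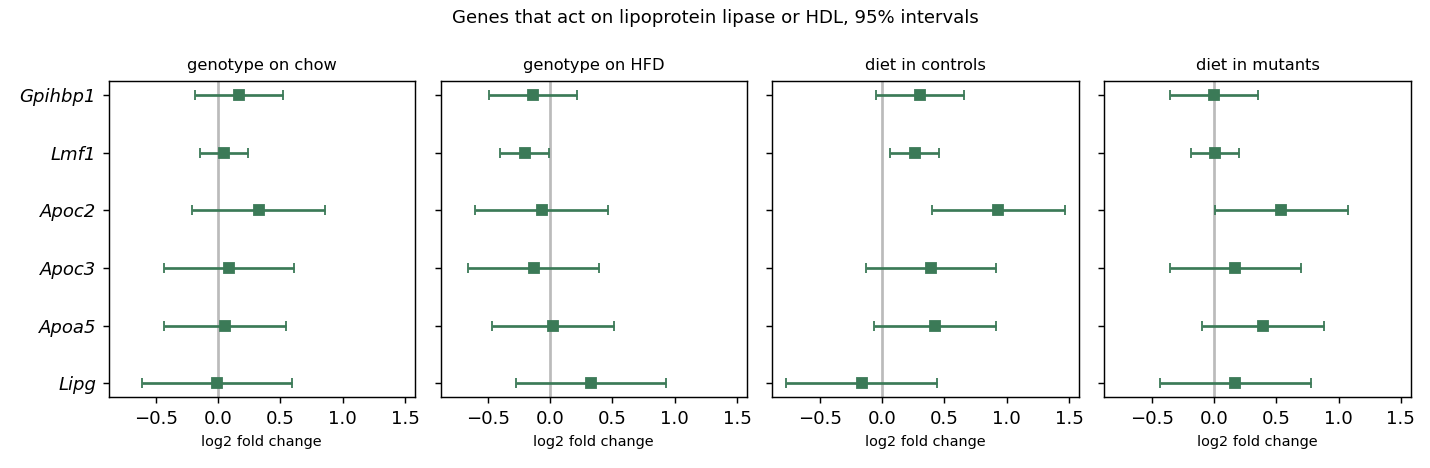
Estimated log2 fold change (squares) with 95% interval (bars) of 6 genes that act on lipoprotein lipase or HDL, in the 4 comparisons of 2 groups. Apoc2 and Lmf1 by diet in controls lie at 0.93 and 0.26 with intervals above 0.

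Of the lists of regulators, 0 genes passed the adjusted threshold in limma in any contrast. Among 16 PPAR alpha and fasting genes 3 had an unadjusted p under 0.05 for genotype on chow, against 6.08% of all tested genes, and all 3 were lower in mutants. The smallest p was that of Cyp4a14, at -3.39 on the log2 scale (standard error 1.15, limma adjusted p = 0.729), where Mutant_Chow replicates 1 and 2 alone held the low values given above, and it ranged from -4.43 to -1.90 over 24 alternatives. Among 19 insulin, SREBP1c and LXR genes 2 were higher and 3 lower at that level by diet in controls, against 12.9% of all tested genes, and the smallest p was that of Scd1, a fatty acid desaturase, at -2.08 (limma adjusted p = 0.178). Srebf1, the lipogenic transcription factor, was 178 to 261 in controls on chow and 292 to 474 in controls on HFD, with no overlap, and its estimate was 0.69 (standard error 0.26, limma adjusted p = 0.292). In that list the smallest p by diet in mutants was that of Igfbp1, an insulin-repressed binding protein, at -1.81 (limma adjusted p = 0.623). Of 15 remnant and HDL receptors and transporters 1 was higher and 1 lower by diet in controls (12.9% of all tested genes), led by Scarb1, the HDL receptor of hepatocytes, at 0.58 (limma adjusted p = 0.284). Of 14 intracellular lipases 1 was higher and 1 lower for genotype on HFD (8.6% of all tested genes), led by Ces3a, a carboxylesterase, at -0.93 (limma adjusted p = 0.558), and 1 was higher and 2 lower for genotype on chow (6.08%). The smallest p on chow was that of Pnpla3, a lipid droplet protein that is also in the insulin, SREBP1c and LXR list, where it had the smallest p for genotype on both diets. Pnpla3 was 1.52 to 2.06 in controls on chow and 3.64 to 7.87 in mutants on chow, with no overlap, and 0.824 to 2.05 in controls and 0.568 to 15.7 in mutants on HFD. Its genotype estimates were 1.16 on chow and 0.93 on HFD (standard error 0.50, limma adjusted p = 0.804 and 0.588). The share of all tested genes whose groups do not overlap was not counted, for Srebf1 and Pnpla3 alike. With library weights the estimates above of Scd1, Srebf1, Scarb1 and Ces3a passed the threshold. Under those weights 17.8% of all tested genes passed by diet in controls and 30.9% for genotype on HFD. The 3 tested relatives among other angiopoietin and angiopoietin-like genes had 1 unadjusted p under 0.05, for genotype on HFD (8.6% of all tested genes). It was that of Angpt1, a vessel-stabilising ligand (0.46, limma adjusted p = 0.527), which also passed with library weights.

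The remaining genes with the smallest p of a list had these estimates on the log2 scale. For genotype on chow they were Vldlr (-0.70), a lipoprotein receptor, Apoc2 (0.33) and Angpt1 (0.23), and limma's adjusted p was at least 0.838. For genotype on HFD they were Scarb1 (-0.42) and Cpt1a (0.24), which brings fatty acids into mitochondria, with limma adjusted p-values of 0.580 and 0.762. Scarb1 passed with library weights, as did 30.9% of all tested genes. By diet in controls they were Ces3a (0.77), Cd36 (0.42), a fatty acid transporter, and Angpt1 (-0.24), with limma adjusted p-values of 0.385, 0.332 and 0.498. Cd36 passed with library weights, as did 17.8% of all tested genes. By diet in mutants they were Cyp4a14 (2.61), where the chow values of Mutant_Chow replicates 1 and 2 enter again, G0s2 (0.69), an inhibitor of adipose triglyceride lipase, Sel1l (-0.33), which helps lipoprotein lipase mature, Angptl2 (0.24) and Apob (0.20), and limma's adjusted p was at least 0.722. For the interaction they were Ehhadh (0.77), Me1 (0.76), Lrp1 (-0.67), Ces1f (0.485), Lmf1 (-0.25) and Angpt1 (0.22), each with a limma adjusted p of 0.895. Of 12 circadian genes 0 passed the adjusted threshold in limma. At an unadjusted p under 0.05 1 was higher and 1 lower by diet in controls (12.9% of all tested genes) and likewise in mutants (6.86%). Their summed level was 200 and 217 in Mutant_Chow replicates 1 and 2 and 215 in Control_Chow replicate 2, against 465 to 771 in the other chow libraries. Those low libraries held the lowest Angptl4 on chow, at 47.4, 41.0 and 55.7. Control_HFD replicate 4, with the lowest Angptl4 of all libraries (38.8), had a circadian sum of 625. The part of circadian genes in the Angptl4 values was not tested.

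The 3 genes whose levels ran most like each member over the 16 libraries were named by Pearson r of log2(value + 1), as a description without a test, over libraries that share groups and series. For Angptl8 they were Prpf3 (0.869), Tmem150a (0.834) and Srebf1 (0.827), and the r of deviations from group means was 0.841, 0.707 and 0.689. For Pltp they were Asf1b (0.906), Dntt (0.869) and Ucp2 (0.866), and for Lpl Bcl2a1b (0.811), 1810014B01Rik (0.799) and Mmp12 (0.786). Asf1b had a median of 0.265. It reached 1 only in Mutant_Chow replicates 1 and 2 (1.06 and 2.64) and Mutant_HFD replicates 2 and 3 (4.06 and 2.38). Those libraries held the highest Pltp, and Asf1b passed the filter only through them, so its rank for Pltp is no separate evidence. Bcl2a1b and Mmp12 were also low, with medians of 1.22 and 1.24. Ucp2, a mitochondrial carrier, was 26.2 to 53.4 in controls on chow, 50.8 to 167 in mutants on chow, 29.8 to 46.7 in controls on HFD and 37.5 to 139 in mutants on HFD. Its genotype estimates were 1.28 on chow and 1.26 on HFD (limma adjusted p = 0.677 and 0.527). The HFD estimate passed without Mutant_HFD replicate 1 (as did 1.11% of all tested genes) and with library weights (30.9%). Angptl4 ran most like Tmem140 (0.862), Tob2 (0.856) and Chad (0.844), Angptl6 like Zfp395 (0.926), Shpk (0.885) and Hdac11 (0.873), Lipc like Gm9887 (0.797), Asrgl1 (0.772) and Nfe2l1 (0.768), and Lcat like Tmem185b (0.771), Ifnar2 (0.769) and H6pd (0.762). By deviations from group means, the top 3 for Angptl4, Lipc and Lcat shared 0 genes with these, and for each other member the top 3 shared 1. The r of deviations of the genes named here was 0.843, 0.864 and 0.848 for Angptl4. It was 0.814, 0.815 and 0.780 for Lipc and 0.720, 0.738 and 0.817 for Lcat.

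**Figure D5:**
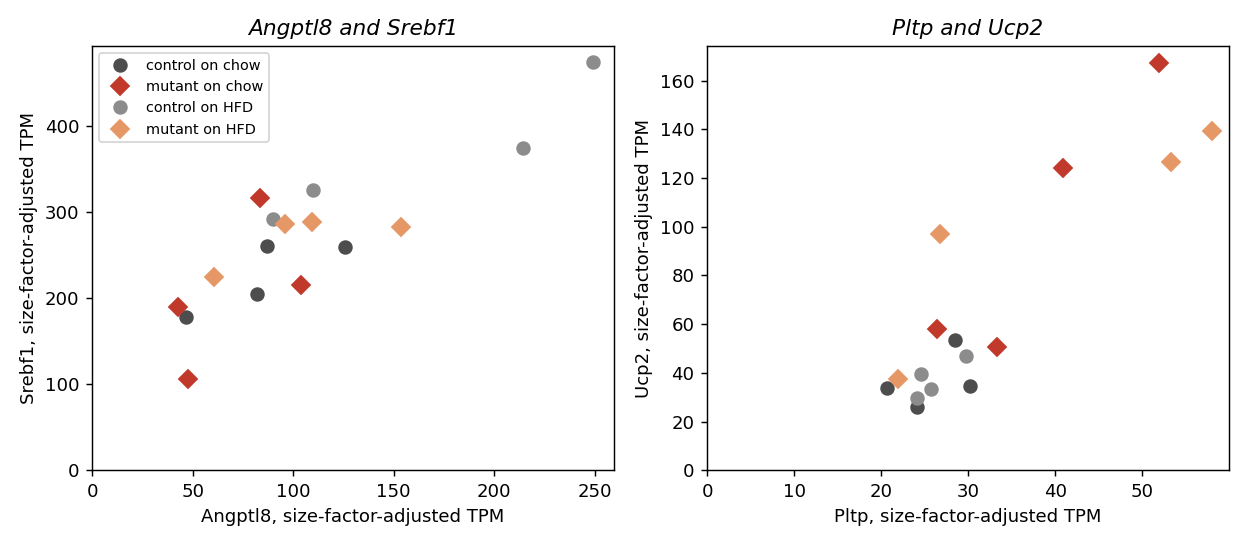
Level of Angptl8 against Srebf1 (left) and of Pltp against Ucp2 (right), both axes in size-factor-adjusted TPM, 1 point a library and colour and shape by group. Control_HFD replicates 1 and 2 hold the highest Angptl8 and Srebf1, and 4 mutants hold the highest Pltp, with Ucp2 from 124 to 167.

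Among the members themselves 21 pairs were tested over the 16 libraries by permutation, and 0 passed 0.05 after Benjamini-Hochberg adjustment, while 3 had an unadjusted p under 0.05. Angptl6 and Lipc had a Pearson r of 0.647 (permutation p = 0.0041, adjusted 0.077) and a Spearman rho of 0.647 (p = 0.0080, adjusted 0.084), with r = 0.815 in the 8 chow libraries and 0.782 in the 8 HFD libraries. Angptl4 and Lipc had a Pearson r of 0.647 (permutation p = 0.0075, adjusted 0.077) and a Spearman rho of 0.647 (p = 0.0080, adjusted 0.084), with r = 0.673 and 0.755 within the diets. Without the 2 libraries farthest from the median of the first gene, r was 0.646 and 0.669. Angptl8 and Lpl had a Pearson r of 0.619 (permutation p = 0.011, adjusted 0.077) and a Spearman rho of 0.535 (p = 0.035, adjusted 0.25), which fell to 0.439 without the farthest 2 libraries and was 0.250 on chow and 0.598 on HFD. The r of deviations from group means was 0.752 for Angptl6 and Lipc, 0.706 for Angptl4 and Lipc and 0.469 for Angptl8 and Lpl. The permutation exchanged libraries across groups and series, so its p-values do not separate group or series differences from variation between mice. The number series hold at most 5 libraries each, too few for a coefficient within them.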

How the data were processed

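Groups were taken from the genotype and treatment labels of 16 liver libraries, and replicates were numbered in sample order and pair nothing. Per the labels and methods, reads were placed on the mm10 transcriptome by kallisto in gene mode, and sleuth was the authors' test. Versions, annotation and filter are not given in the sources used here. The deposited signal of a gene was taken, from the values, to be TPM that the authors adjusted by size factors. It keeps no depth, so counting intervals and detection limits are not given. Kallisto divides reads among similar transcripts by estimation, so values of overlapping or near-identical genes are uncertain.

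Values were tested as log2(value + 1) with limma 3.58.1 in R 4.3.3, with a variance trend, in 1 fit of all 16 libraries and 4 group means. A gene entered with a value of 1 in at least 4 libraries (12704 of 15544), and p-values were adjusted by Benjamini-Hochberg over them, with a threshold of 0.05. The pseudocount understates changes of low genes. Single members were also tested by exact permutation. The fit was tested on simulated data with independent noise and shifts larger than any member estimate here. The simulation held no series and no library that stood apart, so it does not show the power for differences of the size estimated. Positions and exon overlaps came from GENCODE M21.

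The members and gene lists were chosen with earlier results of these data known. All 7 members are named in every comparison. Of a pathway list, the gene with the smallest p in a comparison, any gene past the threshold and genes acting directly on a member are named, from marker, acute-phase and circadian lists only genes that a result touches, as are the 3 genes most correlated with a member and any library that stands apart. Ctsa was named for its exon overlap. Some listed genes were left out of the lists and are not reported here. Alternatives were other scalings, filters and pseudocount, only the groups compared, library weights, the title series as a term, and leaving out each library.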

Additional observations from a re-analysis of the deposited data

How the results depend on the processing

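Of 259 member estimates under the 8 alternatives that keep all libraries, 241 kept their sign and 18 did not, and of 560 with 1 library left out 503 did and 57 did not. The number of members past the threshold was 0 under all 24 alternatives, including library weights, where 3926 genes passed for genotype on HFD and 2264 for diet in controls, against 2 and 0, and the fit without Control_HFD replicate 4, where 928 passed for diet in controls. For genotype on chow the count of all genes was 6 with library weights, 6 with only the groups compared and 14 without Mutant_Chow replicate 3 or Mutant_HFD replicate 1, against 3, and for genotype on HFD it was 141 without Mutant_HFD replicate 1. Signs changed as follows, on the log2 scale, and the cause was not tested. With library weights the genotype estimates on chow were 0.065 for Angptl4 and 0.002 for Lipc, those on HFD were -0.098 for Angptl6, -0.123 for Lipc and -0.034 for Ctsa, the diet estimates were 0.092 (controls) and -0.033 (mutants) for Lipc and 0.347 (mutants) for Pltp, and the interactions were -0.068 for Angptl6, -0.125 for Lipc and 0.261 for Pltp. With median-of-ratios scaling Lipc by genotype on HFD was -0.009 and Pltp by diet in mutants 0.009. With every library rescaled to an equal total, Lcat and Pltp by diet in controls were -0.047 and -0.15, and the interactions of Angptl4, Lpl and Pltp were 0.044, 0.017 and 0.132. With the series as a term the interaction of Angptl4 was 0.244 and Cpt1a by genotype on HFD was -0.082.

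Leaving out 1 library at a time, the estimates that changed sign had these ranges. For genotype on chow they were -0.491 to 0.044 for Angptl4, -0.203 to 0.068 for Angptl6, -0.168 to 0.092 for Lpl and -0.075 to 0.054 for Lipc. For genotype on HFD they were -0.086 to 0.084 for Angptl6, -0.335 to 0.042 for Lpl, -0.076 to 0.103 for Lipc and -0.012 to 0.226 for Ctsa. For diet in controls they were -0.435 to 0.02 for Angptl4, -0.102 to 0.077 for Lipc and -0.079 to 0.095 for Pltp, and for diet in mutants -0.053 to 0.072 for Lipc and -0.222 to 0.233 for Pltp. For the interaction they were -0.389 to 0.159 for Angptl4, -0.045 to 0.226 for Angptl6, -0.326 to 0.051 for Lpl, -0.054 to 0.125 for Lipc and -0.241 to 0.214 for Pltp. Among those that kept their sign, Angptl6 by diet ranged from 0.131 to 0.3 in controls and from 0.147 to 0.417 in mutants, and Lcat from 0.069 to 0.173 for genotype on chow, from -0.145 to -0.037 for genotype on HFD and from -0.146 to -0.031 by diet in mutants.

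No paired analysis was possible because replicates were numbered in sample order and pair no libraries. Diet contrasts allow no series term, and diet and series cannot be told apart. The interaction was not fitted with only the groups compared, which it uses all of. Depth is unknown, and precision rests on 4 libraries a group.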
